A study of Mus musculus with 10 samples.

Results

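The genes described here encode the nuclear subunits of the oxidative phosphorylation complexes: complex I (NADH dehydrogenase, genes named Ndufa, Ndufb, Ndufc, Ndufs and Ndufv, with Ndufab1), complex II (succinate dehydrogenase, Sdha to Sdhd), complex III (the cytochrome bc1 complex, genes starting Uqcr, with Cyc1), complex IV (cytochrome c oxidase, genes starting Cox4 to Cox8) and complex V (ATP synthase, genes starting Atp5). They were chosen by these symbols among the protein-coding genes of the mouse annotation GENCODE M21, and not by any measured value. Earlier results of these data were known when the list was chosen. Of the 51789 genes with counts 86 met the rule, 38 for complex I, 4 for complex II, 9 for complex III, 18 for complex IV and 17 for complex V. The rule goes by name, so it holds Ndufa4, which copurifies with complex IV, and Ndufa4l2, its paralog, under complex I.

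RNA was sequenced from cardiomyocytes isolated 4 days after myocardial infarction (MI). The 5 TgGRK5-MI libraries came from transgenic mice that overexpress the G protein-coupled receptor kinase GRK5 in cardiomyocytes, and the 5 NLC-MI libraries from non-transgenic littermate control mice. Each library was from a different mouse, as the study describes them, and both groups had an MI, so no library shows the subunits in an uninjured heart. The age and sex of the sequenced mice are not in the labels.

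Oxidative phosphorylation makes most of the ATP of a beating heart. Complexes I and II pass electrons from NADH and succinate to ubiquinone, complex III passes them on to cytochrome c and complex IV to oxygen, and the proton gradient that complexes I, III and IV build drives the synthesis of ATP by complex V. Complexes I, III, IV and V also hold subunits encoded in mitochondrial DNA, which are not analysed here, and complex IV has pairs of subunit isoforms of which one prevails in heart and skeletal muscle.

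The libraries held between 7968779 (NLC-MI replicate 3) and 23381527 (NLC-MI replicate 2) counts. Levels are given as CPM, counts scaled to the size of each library. Grk5 itself lay between 46.5 and 73.1 CPM in the NLC-MI libraries and between 552 and 1700 CPM in the TgGRK5-MI libraries (log2 fold change 4.34, adjusted p = 0.000246, edgeR quasi-likelihood test). Summed over the list, 10 cardiomyocyte markers stood at 59890 to 156294 CPM in the NLC-MI and at 63223 to 124589 CPM in the TgGRK5-MI libraries, so the libraries carried the transcripts of the labelled cell type. Fibroblast markers summed to 3096 to 18262 and 3323 to 18692 CPM, and macrophage markers to 555 to 1754 and 940 to 1963 CPM, so RNA of other cells was present in both groups. The share of counts on the subunit genes ran from 3.51% to 6.06%. The mitochondrially encoded subunits were not found among the genes with counts, so the total behind this share leaves their transcripts out. In bulk libraries fewer cells of a type and less RNA per cell cannot be told apart.

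No subunit gene passed the test between TgGRK5-MI and NLC-MI cardiomyocytes. A gene was called where the Benjamini-Hochberg adjusted p of edgeR's quasi-likelihood test, adjusted over all 15232 genes tested, was under 0.10. Of the 86 subunit genes 84 had enough counts to be tested, and 0 of them were called, where 0.0788% of all genes tested were. At an unadjusted p under 0.05 the count was again 0 of 84, where 3.85% of all genes reached it. DESeq2 called 0 subunit genes (0.447% of all genes) and gave 0 at an unadjusted p under 0.05 (4.55% of all genes), and limma-voom called 0 (0.0591% of all genes) and gave 0 at that unadjusted p (3.76% of all genes). There was no subunit gene whose 5 TgGRK5-MI libraries lay all above or all below the 5 NLC-MI libraries, where 1.00% of all genes had groups apart in this way. The adjusted p was 1 for each of the 84.

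The fold changes were small against their errors. The 84 log2 fold changes (TgGRK5-MI over NLC-MI) ran from -0.44 to 0.52, with a median of 0.06 against 0.00 over all genes tested, and 53 of the 84 were above 0, where 50.2% of all genes were. The median standard error (SE) was 0.28 on the log2 scale, against 0.24 over all genes. For 72 of the 84 the whole 95% interval lay within a 2-fold change in either direction, so a larger change was outside the interval for most subunits. The same held for 11557 of all 15232 genes tested, so it was not particular to the subunits.

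**Figure D1:**
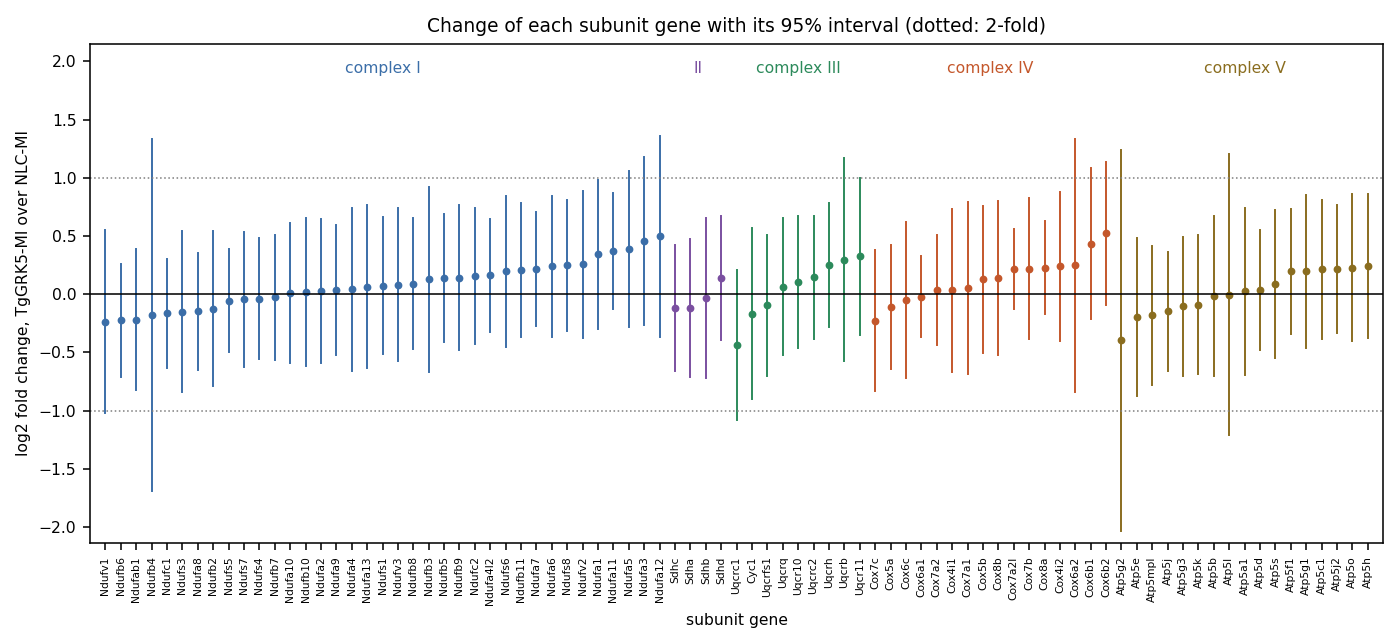
Log2 fold change of the tested subunit genes, 1 of them not shown (points, TgGRK5-MI over NLC-MI) with its 95% interval from edgeR (lines), ordered by size within each complex, with dotted lines at a 2-fold change. Each interval crosses 0, the points run from -0.44 (Uqcrc1) to 0.52 (Cox6b2), and the widest intervals belong to Ndufb4, Atp5g2 and Atp5l.

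Complex I takes electrons from NADH. Its 38 genes, all tested, had a median log2 fold change of 0.07, with 25 above 0 and 13 below.

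Ndufs1, the largest iron-sulphur subunit, stood at 449, 491, 513, 504 and 1072 CPM in NLC-MI replicates 1 to 5 and at 721, 548, 758, 440 and 715 CPM in TgGRK5-MI replicates 1 to 5. The TgGRK5-MI values lay inside the NLC-MI range apart from replicate 4, which was just below it, and NLC-MI replicate 5 held more than any other library. Its log2 fold change was 0.07 (SE 0.27, 95% interval -0.52 to 0.66). Ndufv1 binds the flavin at which NADH is oxidised, and its log2 fold change of -0.24 (SE 0.36) was the lowest among the complex I genes. It stood at 471, 510, 275, 597 and 1128 CPM in the NLC-MI libraries and at 588, 624, 488, 235 and 594 CPM in the TgGRK5-MI libraries. The lowest value of each group belonged to its library of least depth, NLC-MI replicate 3 and TgGRK5-MI replicate 4.

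Per kilobase of exon, Ndufa4 was the most abundant gene named for complex I, at 1230 ± 631 (SD, n = 5) CPM per kilobase (RPKM) in NLC-MI and 1260 ± 290 in TgGRK5-MI. In CPM it stood at 535, 441, 1358, 515 and 985 in NLC-MI and at 629, 575, 1002, 889 and 847 in TgGRK5-MI. NLC-MI replicate 3, the highest for Ndufa4, was the lowest of its group for Ndufv1, so the order of the libraries differed between genes of one complex. Ndufa3 and Ndufa12 are accessory subunits, and their positive fold changes were the largest of complex I. Ndufa3 stood at 218, 154, 270, 182 and 485 CPM in NLC-MI and at 290, 257, 587, 270 and 394 CPM in TgGRK5-MI, a log2 fold change of 0.46 (SE 0.33). Ndufa12 stood at 207, 163, 498, 208 and 420 CPM in NLC-MI and at 311, 212, 789, 483 and 316 CPM in TgGRK5-MI, a log2 fold change of 0.50 (SE 0.40). In both genes the groups overlapped, and TgGRK5-MI replicate 3 was the highest of the 10 libraries. Without that library the log2 fold changes were 0.20 for Ndufa3 and 0.13 for Ndufa12.

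Complex II oxidises succinate and is part of the citric acid cycle as well. Of its 4 genes 1 had a fold change above 0, and the median was -0.08, which was 0.20 without NLC-MI replicate 5. Sdha, the flavoprotein that binds succinate, stood at 791, 964, 952, 1114 and 1952 CPM in NLC-MI and at 1244, 913, 1288, 776 and 1104 CPM in TgGRK5-MI (log2 fold change -0.12, SE 0.27, 95% interval -0.71 to 0.48). All but 1 of the TgGRK5-MI libraries lay between the lowest and the highest NLC-MI library. Sdhb, the iron-sulphur subunit and the most abundant of the 4 per kilobase (552 RPKM over the 10 libraries), stood at 552, 566, 329, 638 and 1108 CPM in NLC-MI and at 647, 657, 670, 332 and 809 CPM in TgGRK5-MI (log2 fold change -0.04, SE 0.32). As for Ndufv1, its lowest value in each group was that of the library of least depth.

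Complex III moves electrons from ubiquinol to cytochrome c. Its 9 genes had a median log2 fold change of 0.10, with 6 above 0. Uqcrc1, a core protein on the matrix side at chr9:108936633-108949623, had the most negative fold change of all subunit genes. It stood at 679, 825, 636, 1055 and 1622 CPM in NLC-MI and at 768, 604, 989, 454 and 741 CPM in TgGRK5-MI. The groups overlapped, with NLC-MI replicates 4 and 5 above each TgGRK5-MI library and TgGRK5-MI replicates 2 and 4 below each NLC-MI library, and the log2 fold change was -0.44 (SE 0.30, 95% interval -1.08 to 0.21, unadjusted p = 0.164 and adjusted p = 1 by edgeR). Uqcrh, the hinge protein that meets cytochrome c1, was the most abundant of the complex per kilobase (1190 RPKM) and stood at 487, 453, 602, 486 and 941 CPM in NLC-MI and at 603, 576, 950, 600 and 810 CPM in TgGRK5-MI (log2 fold change 0.25, SE 0.24). Its TgGRK5-MI libraries lay within or just above the NLC-MI range.

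Complex IV passes electrons to oxygen. Of its 18 genes 16 were tested, with a median log2 fold change of 0.13 and 12 above 0. The 2 untested genes were Cox7b2, with 0 to 3 counts per library, and Cox8c, with 0 counts in all 10 libraries; both are known from testis. Cox5a, a matrix-side subunit, stood at 579, 507, 597, 689 and 1090 CPM in NLC-MI and at 638, 622, 769, 424 and 755 CPM in TgGRK5-MI (log2 fold change -0.11, SE 0.24, 95% interval -0.64 to 0.42). Apart from TgGRK5-MI replicate 4, which was the lowest of all, the TgGRK5-MI libraries lay inside the NLC-MI range.

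Cox6b2, at chr7:4751792-4753094, is the isoform of the Cox6b subunit known from testis, and it had the largest positive fold change and the lowest p of all subunit genes at a very low level. It stood at 1.10, 1.42, 1.05, 0.80 and 0.98 CPM in NLC-MI and at 0.94, 1.83, 2.00, 1.72 and 1.34 CPM in TgGRK5-MI, from 8 to 42 counts a library. TgGRK5-MI replicates 2, 3 and 4 were above each NLC-MI library, and replicates 1 and 5 were inside the NLC-MI range. The log2 fold change was 0.52 (SE 0.28, 95% interval -0.09 to 1.14, unadjusted p = 0.0877 and adjusted p = 1 by edgeR).

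The paired isoforms of complex IV were compared as the ratio of the counts of the isoform that prevails in muscle (or, for Cox4, the one known to respond to low oxygen) to its partner in the same library, which needs no scaling between libraries. An exact two-sided permutation test over the 252 placements of the 5 and 5 libraries cannot go below p = 0.00794, and the p-values were adjusted over the 4 pairs. No pair differed past the threshold, with adjusted p = 0.857 for each by this permutation test.

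Cox6a2, the heart and skeletal muscle isoform at chr7:128205435-128206387, was the most abundant gene of complex IV per kilobase when averaged over the 10 libraries (2239 RPKM), with 2050 ± 1410 RPKM in NLC-MI and 2430 ± 1450 RPKM in TgGRK5-MI (SD, n = 5). It stood at 740, 664, 2830, 794 and 1933 CPM in NLC-MI and at 1114, 831, 3116, 2221 and 983 CPM in TgGRK5-MI. Its partner Cox6a1, which most tissues express, stood at 101, 87.4, 118, 131 and 87.0 CPM in NLC-MI and at 81.4, 107, 123, 106 and 98.4 CPM in TgGRK5-MI. Cox6a1 varied little, whereas Cox6a2 was high in NLC-MI replicates 3 and 5 and in TgGRK5-MI replicates 3 and 4. The ratio of Cox6a2 to Cox6a1 was 7.37, 7.60, 24.1, 6.08 and 22.2 in NLC-MI and 13.7, 7.76, 25.3, 21.1 and 9.997 in TgGRK5-MI. In NLC-MI the ratio thus fell into low and high libraries. In TgGRK5-MI it was graded from 7.76 to 25.3, and the groups overlapped. The libraries with the highest ratios, NLC-MI replicates 3 and 5 and TgGRK5-MI replicates 3 and 4, held 7968779 to 17539882 counts. All others held 18337488 or more. Fibroblast markers summed to 4706 and 3096 CPM in NLC-MI replicates 3 and 5 and to 3323 and 7726 CPM in TgGRK5-MI replicates 3 and 4. In the other libraries they summed to 5731 to 18692 CPM. The parts of depth and of cell content in this ratio were not tested. The difference of the mean log2 ratios, TgGRK5-MI minus NLC-MI, was 0.33 (95% interval -1.15 to 1.73, exact permutation p = 0.54).

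Cox7a1, the muscle isoform, stood at 384, 340, 426, 303 and 895 CPM in NLC-MI and at 418, 397, 786, 289 and 544 CPM in TgGRK5-MI. Cox7a2, its widely expressed partner, ranged from 228 to 429 CPM in NLC-MI and from 243 to 435 CPM in TgGRK5-MI. The ratio of Cox7a1 to Cox7a2 was 1.51, 1.49, 1.26, 1.08 and 2.09 in NLC-MI and 1.72, 1.34, 2.32, 1.13 and 1.25 in TgGRK5-MI. The muscle isoform had the higher counts in each of the 10 libraries although its exons are the shorter (535 against 659 bases), most so in NLC-MI replicate 5 and TgGRK5-MI replicate 3. The difference of the mean log2 ratios was 0.05 (95% interval -0.52 to 0.64, exact permutation p = 0.833).

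Cox8b, the other muscle isoform, stood at 329, 288, 289, 237 and 609 CPM in NLC-MI and at 362, 388, 477, 190 and 509 CPM in TgGRK5-MI. Cox8a, its partner, ranged from 100.2 to 151 CPM in NLC-MI and from 115 to 208 CPM in TgGRK5-MI. The ratio of Cox8b to Cox8a was 2.65, 2.87, 1.95, 1.56 and 4.14 in NLC-MI and 3.13, 2.96, 2.29, 1.17 and 3.04 in TgGRK5-MI. Again the muscle isoform had the higher counts in each library although its exons are the shorter (360 against 550 bases), and the difference of the mean log2 ratios was -0.07 (95% interval -0.89 to 0.77, exact permutation p = 0.857).

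Cox4i2, known from lung and for its response to low oxygen, averaged 9.95 RPKM over the 10 libraries, against 1618 RPKM for Cox4i1, the common isoform of the same subunit. Cox4i2 ranged from 5.37 to 9.95 CPM in NLC-MI and from 4.03 to 13.03 CPM in TgGRK5-MI, and Cox4i1 from 774 to 2193 CPM and from 683 to 1708 CPM. The ratio of Cox4i2 to Cox4i1 was lowest in NLC-MI replicate 5 at 0.00245 and highest in TgGRK5-MI replicate 4 at 0.0191. The difference of the mean log2 ratios was 0.11 (95% interval -1.22 to 1.43, exact permutation p = 0.825).

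**Figure D2:**
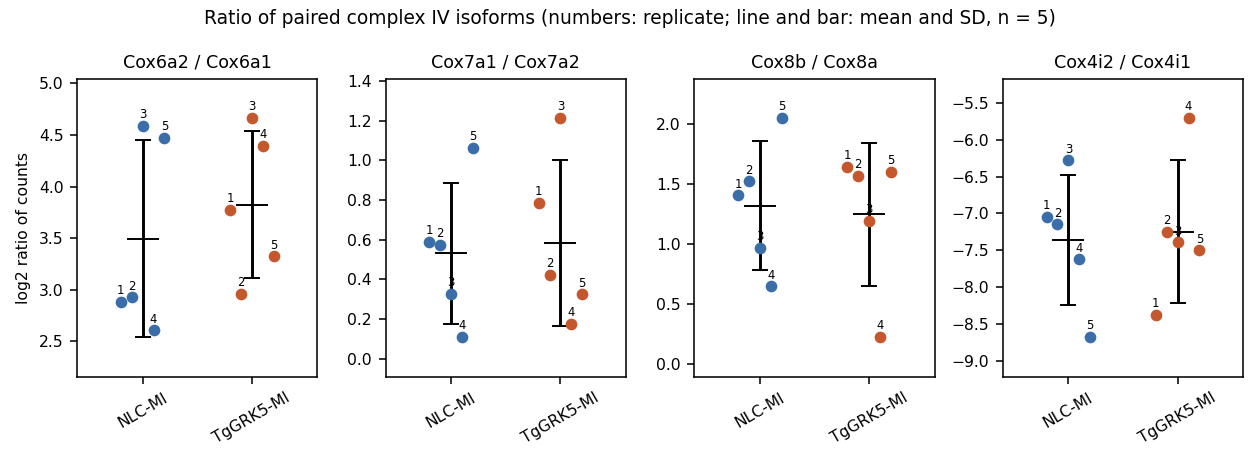
Log2 ratio of the counts of each muscle (or, for Cox4, oxygen-responsive) isoform to its partner in each library, with the replicate number beside each point and the mean and SD (n = 5) of each group. The groups overlap in all 4 panels. Cox6a2 to Cox6a1 splits into low and high libraries within NLC-MI and is graded within TgGRK5-MI. The highest libraries of that panel, NLC-MI 3 and 5 and TgGRK5-MI 3 and 4, have fewer counts than all others. The parts of depth and of cell content were not tested.

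Complex V makes ATP. Its 17 genes had a median log2 fold change of 0.02, with 9 above 0. Atp5b, the catalytic beta subunit, was the most abundant of the complex per kilobase (2196 RPKM) and stood at 3104, 3720, 3671, 4179 and 6499 CPM in NLC-MI and at 4556, 3616, 5510, 3024 and 4192 CPM in TgGRK5-MI (log2 fold change -0.02, SE 0.31, 95% interval -0.70 to 0.67). The groups overlapped, with the highest level in NLC-MI replicate 5 and the lowest in TgGRK5-MI replicate 4. Atp5g2 is 1 of the 3 genes that encode the same membrane ring subunit, and its counts were few and uneven. It stood at 8.63, 15.8, 74.7, 8.59 and 7.20 CPM in NLC-MI and at 10.8, 5.41, 28.1, 37.5 and 5.15 CPM in TgGRK5-MI. NLC-MI replicate 3 alone held more than all the other NLC-MI libraries together, and the log2 fold change of -0.40 (SE 0.75) had the widest interval of all subunit genes, -2.04 to 1.24.

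The uneven levels of Atp5g2 came with near-identical copies of the gene elsewhere in the genome. Of the 86 subunit genes 32 have at least 1 copy (67 in all) that matches at least 80% of their coding sequence at 90% identity or more. For 9 subunit genes such copies held over 1% of the joint counts, and for 4 of them the copies held more than the gene itself: 46150 against 2583 counts for Atp5g2, 30589 against 8702 for Ndufb4, 60574 against 32212 for Cox7c and 82367 against 52085 for Atp5l. Ndufab1 (22.1% of joint counts on copies), Atp5g1 (17.8%) and Ndufa12 (6.75%) followed.

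Over the coding sequence these genes and their most counted copies have the same letters or nearly so, and the sequences are shown for that reason. Cox7c, at chr13:86044816-86046904 on the minus strand, encodes a small complex IV subunit, and its 189 coding bases before the stop codon are spread over its exons. The 2 pseudogenes that took nearly all of the copies' counts, 53392 and 7181, are intronless copies, Gm12338 at chr11:75599766-75599954 on the minus strand and Gm10012 at chr17:25901862-25902050 on the plus strand (coordinates of the matching bases; build GRCm38, the same assembly as mm10). Gm12338 is identical over all 189 bases, and Gm10012 carries G30C and G107A, counted from 1 at the A of the start codon. The sequences follow 5′ to 3′, from GENCODE M21 transcripts, with the differing bases in capitals in Cox7c and Gm10012.
Cox7c: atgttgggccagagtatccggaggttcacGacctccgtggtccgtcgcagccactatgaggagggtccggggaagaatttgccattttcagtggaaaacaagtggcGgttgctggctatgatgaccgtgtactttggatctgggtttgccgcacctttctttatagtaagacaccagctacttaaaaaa
Gm10012: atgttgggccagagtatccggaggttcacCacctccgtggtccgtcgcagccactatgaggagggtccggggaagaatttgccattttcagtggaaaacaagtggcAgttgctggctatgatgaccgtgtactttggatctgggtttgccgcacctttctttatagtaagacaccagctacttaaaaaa
Gm12338: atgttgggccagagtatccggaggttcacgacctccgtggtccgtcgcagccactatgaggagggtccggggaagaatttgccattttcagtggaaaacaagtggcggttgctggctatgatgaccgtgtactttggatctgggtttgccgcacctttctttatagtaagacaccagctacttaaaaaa

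For Atp5l, the g subunit of the ATP synthase membrane part, the processed pseudogene Gm10221 (chr5:24581554-24581862, minus strand) is identical over all 309 coding bases, and it held 81868 counts. Ndufb4, an accessory subunit of complex I, has the processed pseudogene Ndufb4c (chr15:73809510-73809896, minus strand), which is identical over all 387 coding bases. The first 300 coding bases of each gene, which its copy shares base for base, are given 5′ to 3′ without capitals, since nothing differs.
Atp5l and Gm10221: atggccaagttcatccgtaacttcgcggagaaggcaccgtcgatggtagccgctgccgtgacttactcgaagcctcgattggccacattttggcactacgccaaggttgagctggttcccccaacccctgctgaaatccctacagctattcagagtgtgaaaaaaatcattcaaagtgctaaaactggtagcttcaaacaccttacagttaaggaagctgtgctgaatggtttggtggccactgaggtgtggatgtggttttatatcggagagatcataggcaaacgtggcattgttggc
Ndufb4 and Ndufb4c: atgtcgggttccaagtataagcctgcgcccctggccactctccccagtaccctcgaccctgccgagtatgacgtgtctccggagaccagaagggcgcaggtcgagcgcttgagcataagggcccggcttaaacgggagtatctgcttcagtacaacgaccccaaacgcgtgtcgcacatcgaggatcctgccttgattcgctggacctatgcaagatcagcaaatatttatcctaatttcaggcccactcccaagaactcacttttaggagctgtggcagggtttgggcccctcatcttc

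The split between gene and copy differed by library. For Atp5l the gene itself held 31.7%, 30.03%, 98.5%, 30.65% and 31.7% of the joint counts in NLC-MI and 27.2%, 31.3%, 36.05%, 82.5% and 36.15% in TgGRK5-MI. For Ndufb4 it held 15.8%, 15.4%, 74.6%, 14.3% and 16.5% in NLC-MI and 11.8%, 13.6%, 23.9%, 58.1% and 19.3% in TgGRK5-MI. NLC-MI replicate 3 and TgGRK5-MI replicate 4, the libraries of least depth (7968779 and 9114469 counts), stood apart from the other 8 in both genes. Atp5g2 held 34.5% and 16.8% of its joint counts in these 2 libraries and from 1.58% to 7.89% in the other 8. Ndufab1 held 99.5% and 91.9% there and from 60.7% to 85% elsewhere. Cox7c did not show this order: its own share was 25.3% and 24.6% there and from 17.6% to 43.2% elsewhere. Ndufa12 went the other way, with 77.8% and 83.0% there and from 86.0% to 99.8% elsewhere. The part of depth in the split was not tested, and the read length and layout of each library are not given in the sources used here.

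Adding the copies narrowed the spread between libraries for the 4 genes with more counts on copies than on the gene, and not for all others. For Atp5l the ratio of the highest to the lowest library was 7.56 for the gene alone and 2.88 for the gene with its copies. For Ndufb4 it was 10.1 and 2.33, for Atp5g2 14.5 and 2.12, and for Cox7c 3.13 and 2.54. For Ndufa12, in contrast, it was 4.84 and 5.61, and for Atp5g1 2.56 and 2.92. The log2 fold change of Atp5g2 turned from -0.40 to 0.22 (SE 0.23), that of Ndufb4 from -0.18 to 0.11 (SE 0.27), that of Cox7c from -0.23 to 0.09 (SE 0.27) and that of Atp5l from -0.0042 to 0.24 (SE 0.30). Each joint value had an adjusted p of 1 by edgeR, so these genes passed the test neither alone nor with their copies.

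**Figure D3:**
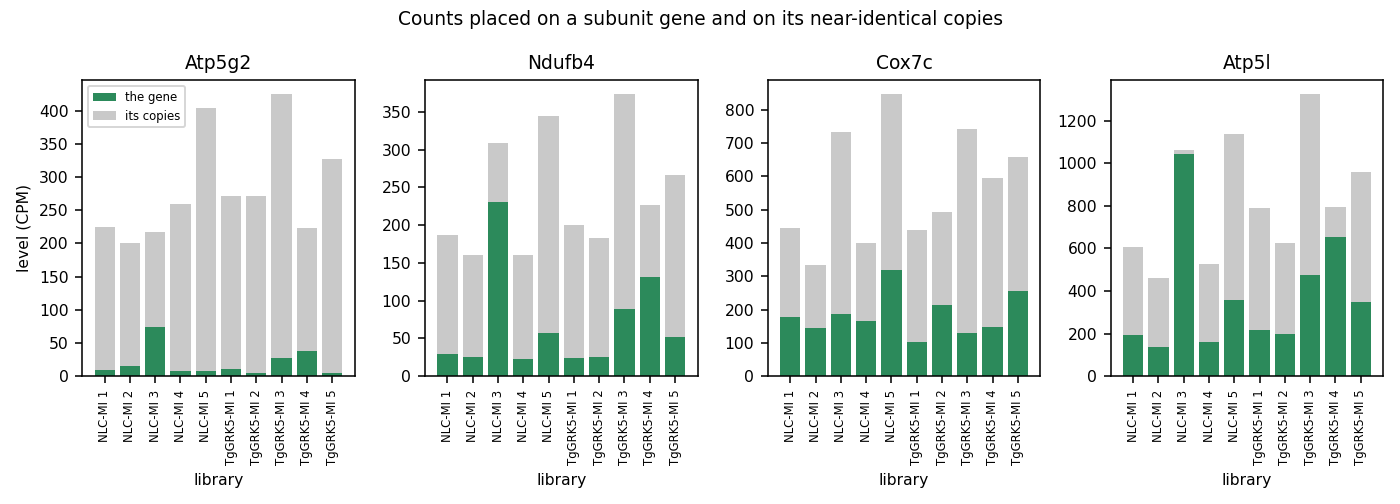
Level in CPM of 4 subunit genes (green) and of their near-identical copies stacked on top (grey) in each library. In NLC-MI 3 and TgGRK5-MI 4 the gene takes a larger part of the bar than in the other libraries for Atp5g2, Ndufb4 and Atp5l, but not for Cox7c, and the whole bars vary less than the green parts do for Atp5g2, Ndufb4 and Atp5l.

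The subunit genes were mostly high in the same libraries, and those libraries belonged to both groups. Summed over all 86 genes, the level was 34621, 33254, 44546, 37725 and 69562 CPM in NLC-MI and 43775, 37988, 61858, 36807 and 49221 CPM in TgGRK5-MI. NLC-MI replicate 5 and TgGRK5-MI replicate 3 were the highest of their groups, and the group means of 43940 ± 15000 and 45930 ± 10200 CPM (SD, n = 5) differed by 0.06 on the log2 scale. Of the 84 tested genes 64 were highest of their group in NLC-MI replicate 5 and 57 in TgGRK5-MI replicate 3. The median SD of log2 CPM within a group was 0.466 for the subunit genes and 0.39 for all genes tested.

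By complex the sums had the same order of libraries at the top. In CPM, which is not per length, complex V held most, with 15710 ± 5240 in the NLC-MI and 16230 ± 3460 in the TgGRK5-MI libraries. Complex I followed with 12210 ± 4220 and 12920 ± 2990 CPM, complex IV with 8064 ± 3020 and 8826 ± 2320 CPM, complex III with 5335 ± 1810 and 5427 ± 1220 CPM, and complex II, of only 4 genes, with 2625 ± 1020 and 2528 ± 521 CPM (SD, n = 5 each). In each complex NLC-MI replicate 5 and TgGRK5-MI replicate 3 were the highest of their groups, and the difference between the groups was smaller than either SD.

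The cardiomyocyte markers moved with the subunit genes. The 10 markers summed to 156294 CPM in NLC-MI replicate 5 and 124589 CPM in TgGRK5-MI replicate 3, the highest of each group, whereas the 6 fibroblast markers were at 3096 and 3323 CPM there, the lowest of each group. The ratio of the subunit sum to the cardiomyocyte marker sum lay between 0.411 and 0.578 in NLC-MI (0.471 ± 0.0647) and between 0.453 and 0.651 in TgGRK5-MI (0.538 ± 0.0838; SD, n = 5 each), so the groups overlapped here too. The part that the content of other cells has in the level of the subunit genes was not tested. Macrophage markers, 6 of 6 of them with a fold change above 0 and none at an unadjusted p under 0.05, and lymphocyte markers, at 0.327 to 2.18 CPM in sum, made up little of any library. Neutrophil markers summed to 9.69 to 29.9 CPM, endothelial markers to 651 to 1424 CPM and smooth muscle and pericyte markers to 732 to 1938 CPM over the 10 libraries, and none of these lists held a gene at an unadjusted p under 0.05.

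**Figure D4:**
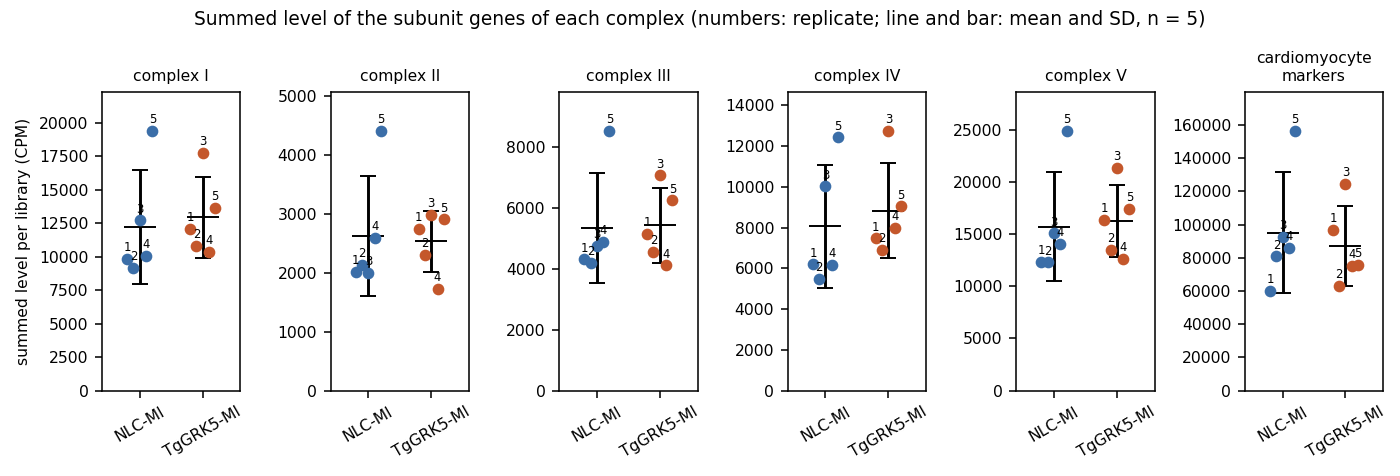
Summed level in CPM of the subunit genes of each complex and of the 10 cardiomyocyte markers in each library, with the replicate number beside each point and the mean and SD (n = 5) of each group. NLC-MI 5 and TgGRK5-MI 3 are the highest of their groups in each panel, and the groups overlap throughout.

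The libraries of least depth had an order of their own. NLC-MI replicate 3 and TgGRK5-MI replicate 4 both lay below the other 8 libraries for 22 of the 84 genes (26.2%, against 13% of all genes tested), among them Ndufv1, Cyc1, Uqcrfs1, Sdhb and Cox4i1. They both lay above the other 8 for 3 of the 84 (3.57%, against 12.7% of all genes). These were Atp5g2, Atp5l and Ndufb4, which are among the genes with the uneven split described above. Each group holds 1 of these libraries. Without both of them no subunit gene was called, the median log2 fold change of the subunit genes was 0.16 in place of 0.06, and that of complex V was 0.20 in place of 0.02.

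**Figure D5:**
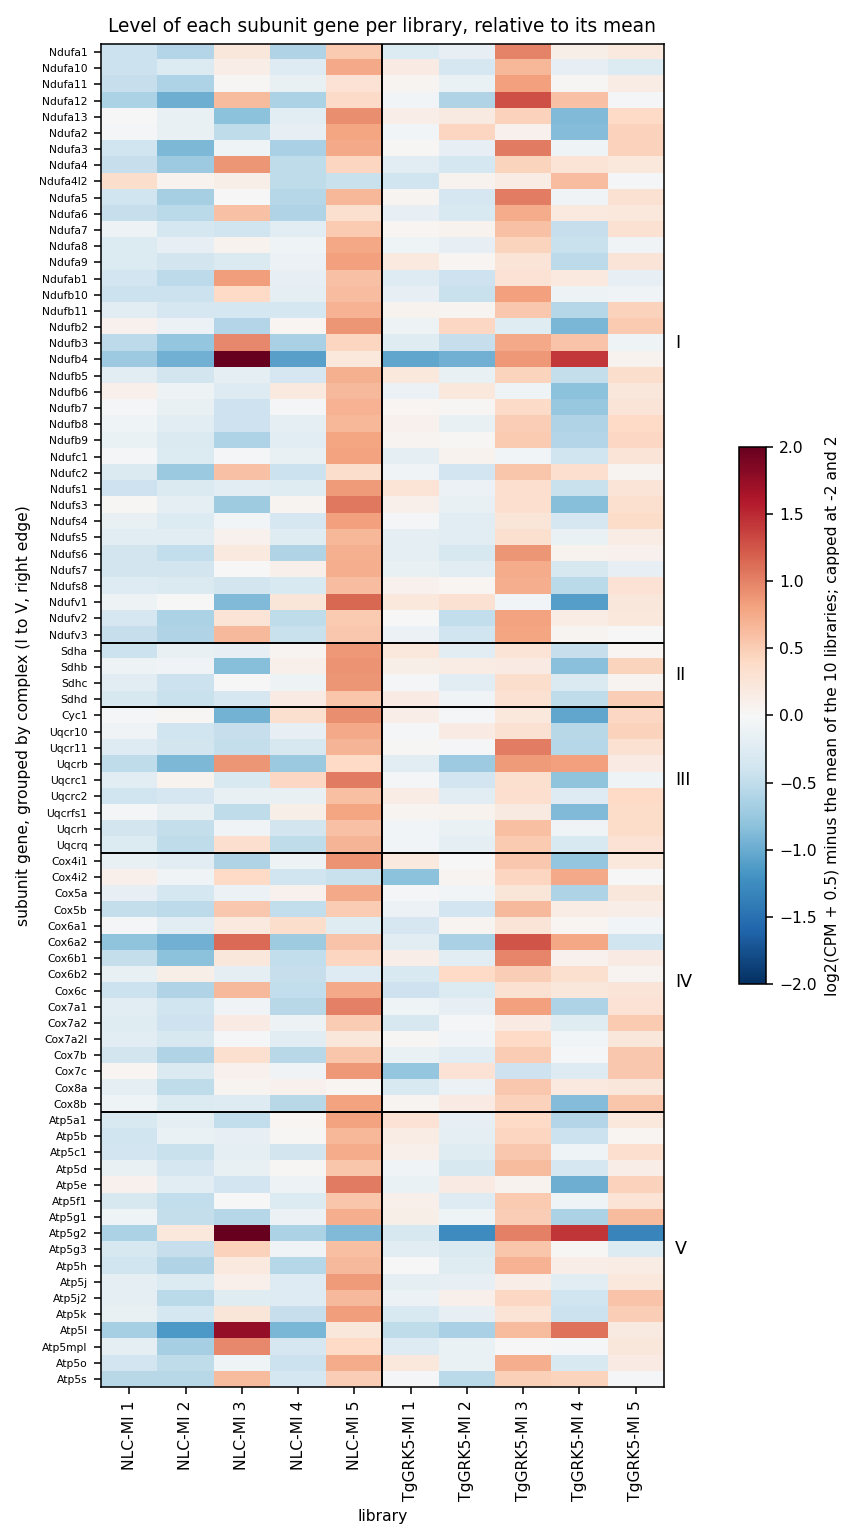
Level of the tested subunit genes, 1 of them not shown (rows, by complex), in each library (columns) as log2(CPM + 0.5) minus its mean over the 10 libraries, in colour from -2 (blue) to 2 (red). The columns NLC-MI 5 and TgGRK5-MI 3 are red over most rows, and NLC-MI 3 and TgGRK5-MI 4 mix blue rows such as Ndufv1 and Cyc1 with dark red ones such as Atp5g2 and Ndufb4.

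Leaving out NLC-MI replicate 5, the library richest in subunit transcripts, moved the fold changes upwards. Without it 7 of the tested subunit genes were higher in TgGRK5-MI at an unadjusted p under 0.05, none lower and none called, and 787 of 15610 genes reached that unadjusted p in the same fit. The 7 were Ndufa3, Ndufa5, Ndufa11, Uqcrh, Atp5c1, Atp5j2 and Atp5o, with adjusted p between 0.92 and 0.957. Ndufa3 had the lowest p of them (log2 fold change 0.80, SE 0.27, unadjusted p = 0.0143 and adjusted p = 0.92 by edgeR). The median log2 fold change of the subunit genes was 0.26 without NLC-MI replicate 5 and -0.07 without TgGRK5-MI replicate 3, so single libraries set its size and its sign. Without TgGRK5-MI replicate 3 the medians of complexes I, IV and V were below 0 as well, at -0.05, -0.03 and -0.11, and without NLC-MI replicate 5 they were 0.26, 0.29 and 0.19.

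Genes that act beside the subunits did not pass the test either. Of 48 assembly factors 47 were tested, with 29 above 0 and a median log2 fold change of 0.03. Of 15 electron carriers, feeding enzymes and exchange proteins 6 were above 0 (median -0.02), of 17 genes of the citric acid cycle and pyruvate dehydrogenase 9 (median 0.01) and of 18 transcriptional regulators 8 (median -0.11). In none of these 4 lists was a gene called or at an unadjusted p under 0.05. The largest fold change in them was that of Atpif1, among the carriers and exchange proteins (log2 fold change 0.88, SE 0.42, unadjusted p = 0.0579 by edgeR). It was larger than that of any subunit gene, and its groups overlapped. Ppargc1a, the coactivator PGC-1alpha that drives mitochondrial gene expression, stood at 63.3, 63.5, 140, 81.6 and 149 CPM in NLC-MI and at 76.8, 51.0, 109, 113 and 73.8 CPM in TgGRK5-MI. Its groups overlapped, with NLC-MI replicates 3 and 5 above each TgGRK5-MI library (log2 fold change -0.23, SE 0.30, adjusted p = 1 by edgeR).

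Of the marker lists, 1 of 10 cardiomyocyte and 1 of 4 atrial markers had a lower level in TgGRK5-MI at an unadjusted p under 0.05. Neither was called, and the other marker lists held no gene at that p. Over all genes tested 3.85% reached it in either direction by edgeR, so these few are not read as a change of either list. Ryr2, the calcium release channel of the sarcoplasmic reticulum, stood at 715, 1177, 1643, 1970 and 1942 CPM in NLC-MI and at 1016, 528, 889, 766 and 716 CPM in TgGRK5-MI (log2 fold change -0.93, SE 0.30, adjusted p = 0.968 by edgeR). Myl7, the atrial myosin light chain, averaged 32.9 ± 24.6 CPM over the NLC-MI libraries and 13.6 ± 7.77 CPM over the others (SD, n = 5 each; log2 fold change -1.27, SE 0.55, adjusted p = 1 by edgeR). The groups overlapped in both genes.

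The promoters of the subunit genes were searched for the letters of 3 motifs of factors known to act on respiratory genes, on both strands, in the window from 250 bases before to 50 after the start in RefSeq. Of the subunit genes 67 matched, with 72 windows. The NRF1 motif GCGCATGCG was in 8 of the 72 (11.1%) against 2.35% of the windows of protein-coding genes and 1.75% of all 32851 windows. The ETS motif CTTCCGG, which GABP binds, was in 16 (22.2%, against 11.6% and 8.86%), and the ERR motif TCAAGGTCA in 2 (2.78%, against 0.334% and 0.423%). The 8 genes with the NRF1 motif were Atp5g2, Atp5k, Atp5l, Cox6a1, Ndufa8, Ndufa11, Uqcr11 and Uqcrc1, whose log2 fold changes ran from the lowest of all subunit genes (Uqcrc1, -0.44) to 0.37 (Ndufa11), and none passed the test. The match of letters is a description of these windows and not of binding. Cox6a1, the isoform of even level described above, is shown as the example. The NRF1 motif is in capitals (it matches on both strands, 1 base apart). The window of Cox6a1 also holds the ETS motif, outside the bases shown. The bases are chr5:115348982-115349208 on the minus strand (RefSeq, GRCm38.p6), 5′ to 3′ and ending just before the start of the gene in GENCODE M21.
Cox6a1: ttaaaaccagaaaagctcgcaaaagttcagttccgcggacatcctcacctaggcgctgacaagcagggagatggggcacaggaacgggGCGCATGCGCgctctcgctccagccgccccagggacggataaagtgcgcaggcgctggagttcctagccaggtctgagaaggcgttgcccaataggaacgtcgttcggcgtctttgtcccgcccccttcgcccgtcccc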

How the data were processed

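The deposited table holds counts, whole numbers per Ensembl gene, for 10 libraries. The authors prepared them with the Illumina TruSeq RNA Library Prep Kit v2, which does not mark strand; the submitters' processing notes name Bowtie2, RSEM 1.2.31, DESeq2 and mm10, without role or order. The annotation version and the handling of reads that match several genes are not given in the sources used here. Columns were matched to samples by name. Of 51789 gene IDs 51596 were in GENCODE M21.

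Counts were tested with edgeR 4.0.16 (R 4.3.3): genes kept by filterByExpr, TMM scaling, quasi-likelihood F test of TgGRK5-MI against NLC-MI, Benjamini-Hochberg adjustment, with an adjusted p under 0.10, the study's false discovery rate, as the threshold. CPM are TMM-scaled, and RPKM are CPM per kilobase of exon. SE is the fold change over the root of F. Isoform ratios used a pseudocount of 0.5 counts and an exact two-sided permutation test. Named genes were the 3 markers Ndufs1, Sdha and Cox5a, the isoform pairs, the most abundant gene of each complex, the 3 largest fold changes in each direction, any with an unadjusted p under 0.05 or groups apart, and those untested; other genes named were chosen after their values were seen. The members and lists were chosen with earlier results of these data known. Exons of 27 subunit genes overlap a gene on the opposite strand, so shared reads cannot be told apart. DESeq2 1.42.0, limma 3.58.1, other scalings and filters, a replicate block and leaving out libraries were tried. The copies, a cardiomyocyte marker covariate and the omission of the 2 libraries of least depth were chosen after seeing the data. The tests were checked on simulated data. 1 subunit gene enters the counts and sums but is not reported here.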

Additional observations from a re-analysis of the deposited data

Results flagged for a closer look

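In a group of 5 libraries, a value was taken as standing apart where its gap to the nearest other library, divided by the group's range, was above 0.71 (Dixon's 95% value). For a single group chance gives about 1 in 20. The genes, sums and ratios examined came from the same libraries, so their number cannot be set against that share. Of 62 groups of values examined 9 held such a value, and 8 of the 9 were high values of NLC-MI replicate 5. These were Ndufs1 (1072 CPM, next 513), Sdha (1952 CPM, next 1114), Cox7a1 (894.5 CPM, next 426), Cox8b (608.7 CPM, next 329), Cox4i1 (2193 CPM, next 1091) and the sums over complex II (4399 CPM, next 2586), complex III (8526 CPM, next 4881) and complex V (24847 CPM, next 15060). The same library held the highest sum of cardiomyocyte markers (156294 CPM) and the lowest of fibroblast markers (3096 CPM) of the 10; the part of cell content in these values was not tested. The ninth was Atp5g2 in NLC-MI replicate 3 (74.72 CPM, next 15.8), the library of least depth, in which the gene held 34.5% of the counts it shares with its copies. No value of the TgGRK5-MI group stood apart in this way.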

How the results depend on the processing

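No subunit gene was called at an adjusted p under 0.10 under any of the alternatives run. The number higher at an unadjusted p under 0.05, 0 in the reported fit, was 1 with the replicate block (Ndufa3, beside 604 of 15232 genes), 5 with the cardiomyocyte marker level as a covariate (Ndufa11, Ndufa5, Cox7a2l, Ndufa3 and Cox6b1, edgeR adjusted p between 0.553 and 0.709, beside 1051 of 15232 genes) and from 0 to 7 when 1 library was left out (7 without NLC-MI replicate 5; 1 without TgGRK5-MI replicate 1, Cox6b2, beside 583 of 15355 genes). Deviations of same-numbered libraries from their group means correlated at 0.0717, 0.662, 0.381, -0.341 and 0.0848 for replicates 1 to 5. Their mean was 0.172, against -0.0274 for libraries of different number. Only the libraries numbered 2 were each other's best match. These values cannot settle whether the replicate numbers mark pairs or batches.

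Signs of small fold changes turned under some settings; apart from what the settings themselves add or leave out, the cause was not tested. Sdhb was at 0.0162 with limma-voom and 0.0135 with the block. Without the 2 libraries of least depth Cox6a1 was at 0.0161, Atp5b at 0.0313 and Atp5g2 at 0.2745. With copies added Atp5g2 was at 0.2184. With the covariate Sdha was at 0.0187, Sdhb at 0.0679 and Atp5b at 0.0766. Leaving out 1 library at a time gave log2 ranges of -0.1483 to 0.1811 for Atp5b, -0.8859 to 0.7684 for Atp5g2, -0.113 to 0.3458 for Cox4i1, -0.2047 to 0.1063 for Cox5a, -0.1024 to 0.0713 for Cox6a1, -0.1252 to 0.6788 for Cox6a2, -0.198 to 0.4166 for Cox7a1, -0.1122 to 0.1791 for Cox7a2, -0.1066 to 0.3495 for Ndufa4, -0.0423 to 0.3734 for Ndufs1, -0.4181 to 0.1207 for Ndufv1, -0.2483 to 0.1498 for Sdha and -0.2005 to 0.2495 for Sdhb. Without a turn of sign, the ranges were 0.1323 to 0.76 for Ndufa12, 0.1989 to 0.7964 for Ndufa3, 0.1137 to 0.474 for Uqcrh, 0.0946 to 0.3088 for Cox8a, 0.0159 to 0.425 for Cox8b, 0.0381 to 0.4099 for Cox4i2, 0.4173 to 0.6641 for Cox6b2 and -0.5973 to -0.176 for Uqcrc1. The medians ran from -0.0541 to 0.2589 for complex I, -0.1623 to 0.2031 for II, 0.0068 to 0.3526 for III, -0.027 to 0.2932 for IV and -0.1119 to 0.1947 for V. For the isoform ratios the ranges were 0.1048 to 0.6006 for Cox6a2 to Cox6a1, -0.2762 to 0.3902 for Cox4i2 to Cox4i1, -0.1059 to 0.1835 for Cox7a1 to Cox7a2 and -0.2396 to 0.1847 for Cox8b to Cox8a.

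With 5 libraries a group and a median SE of 0.28, changes well under 2-fold could not be told from none. A change near 2-fold could miss the threshold as well. Ryr2, with a log2 fold change of -0.93 (SE 0.30), had an adjusted p of 0.968 by edgeR.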
